A study of Mus musculus with 8 samples.

Results

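The enzymes that carry glucose 6-phosphate to lactate, below the hexokinases, were followed in mouse mammary glands with and without the transcription factor Th-POK, which is encoded by Zbtb7b. The members were 10 genes chosen by name, in pathway order Gpi1, Pfkl, Pfkp, Aldoa, Aldoc, Tpi1, Pgk1, Pgam1, Eno1 and Ldha, and their probes were found through the accession that the array gives for each probe. These 10 genes were read by 14 probes, of 41174 probes and 14137 genes tested. Glands of the No. 4 position came from 8 lactating females of the C57/Bl6 background on lactation day 1, of which 4 were WT (wild type) and 4 were KO (knockout of Th-POK). Each dam gave the Cy3-labelled RNA for 1 Agilent mouse array of 1 colour, on which the brightness of a probe is the measurement. The KO dams lacked Th-POK in every tissue and not in the gland alone, and no agent was given to either genotype. No age was given in the labels.

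Glycolysis splits glucose into pyruvate, and lactate dehydrogenase turns pyruvate into lactate. In the lactating gland, alveolar cells take up much glucose, which serves as the sugar for lactose, as glycerol 3-phosphate for milk triacylglycerol and as a source of acetyl-CoA for milk fatty acids. Several steps of the pathway have more than 1 gene, and the products of these genes, called isozymes, catalyse the same reaction with different regulation or tissue preference. Phosphofructokinase is the committed step and the main point of control below the hexokinases.

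Between 66.8% and 75.3% of the probes were well above background on each array, and no spot was saturated. Zbtb7b, the deleted gene, had log2 signals of 9.90, 10.42, 10.13 and 10.23 in WT glands and of 1.55, 1.56, 1.65 and 1.60 in KO glands. Its probe was well above background on 4 WT arrays and on 0 KO arrays, which made it at least 81.5-fold lower in KO glands (limma adjusted p = 5.71e-09). Slide followed genotype, with the WT arrays together on 1 slide and the KO arrays together on the other, so the effects of genotype and slide cannot be told apart. The arrays are of whole glands, in which fewer cells of a type and less RNA per cell cannot be told apart either. Milk protein genes of alveolar cells were among the brightest on all arrays, with log2 signals of 17.70 to 17.85 for Csn2 (beta-casein) and of 18.33 to 18.48 for Wap (whey acidic protein), but quantile normalization gives the same values to the brightest ranks of every array, so no difference between genotypes is read from these genes. Lalba (alpha-lactalbumin), which lies lower, ran from 14.97 to 15.74 in WT and from 14.67 to 15.41 in KO glands, a difference of -0.45 (SE 0.23, adjusted p = 0.197, and 0.0444 with the block).

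Of the 10 enzymes, 9 had a lower mean in KO glands and 1 a higher mean, or 10 and 0 when arrays were scaled to their 75th percentile. The median log2 difference (KO minus WT) over the 10 was -0.42, beside -0.02 over all 14137 genes. Pfkl, the liver-type phosphofructokinase, fell 2.13-fold and was the only member past an adjusted p of 0.05 in limma, where p-values were adjusted over all genes tested. That is 1 of 10 members lower and 0 of 10 higher, in a comparison that called 8.96% of all genes lower and 7.53% higher. At an unadjusted p under 0.05 the count was 5 of the 10 members, all of them lower, where 19.6% of all genes were lower at that threshold. When the replicate number, which WT and KO arrays share, entered the fit as a block, 6 of 10 members were called lower (Pfkl, Aldoc, Tpi1, Pgk1, Pgam1 and Eno1) and 0 higher, against 10.8% of all genes lower and 8.75% higher. The pairing by number was itself read from these data. Within the 4 numbered pairs, 7 members were lower in KO in 4 of 4 pairs, a pattern that 25.6% of all genes showed. The genotypes did not overlap for 1 member, Pfkl, with all WT arrays above all KO arrays, as for 12.9% of all genes.

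**Figure D1:**
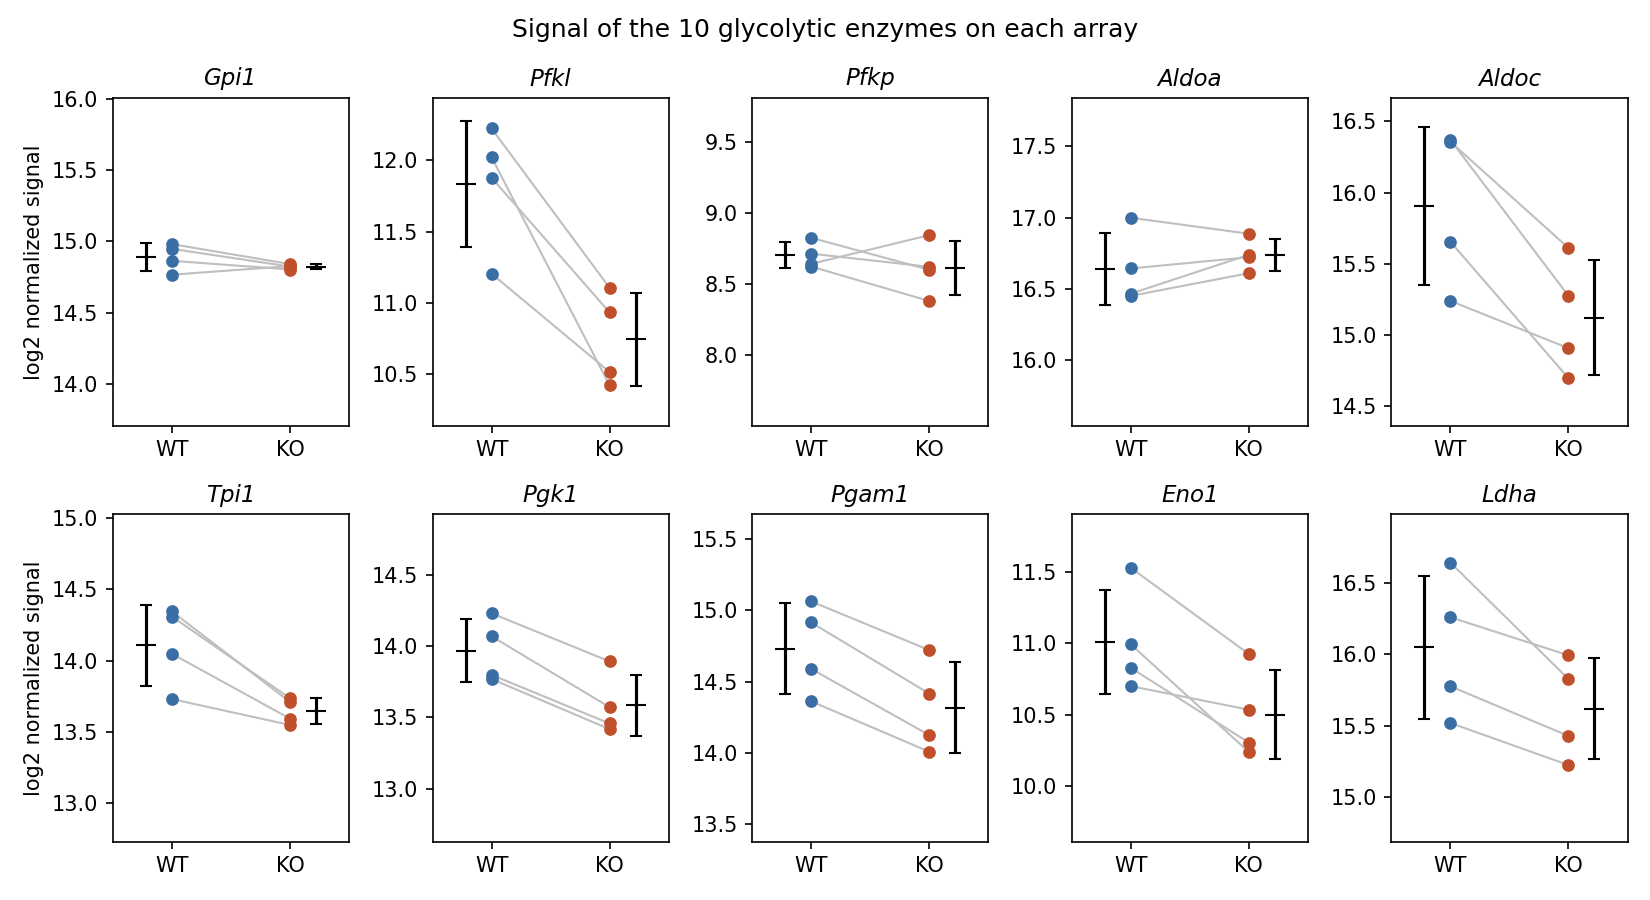
Log2 quantile-normalized signal (vertical axis, each panel spanning the same log2 range) of the 10 enzymes in WT and KO glands; points are single arrays, grey lines join arrays with the same replicate number, and bars beside the points give the mean and SD of 4 arrays. Pfkl is the panel in which no KO array reaches the lowest WT array, at 11.21, and in the panels from Aldoc and Tpi1 to Ldha every grey line slopes downward.

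**Figure D2:**
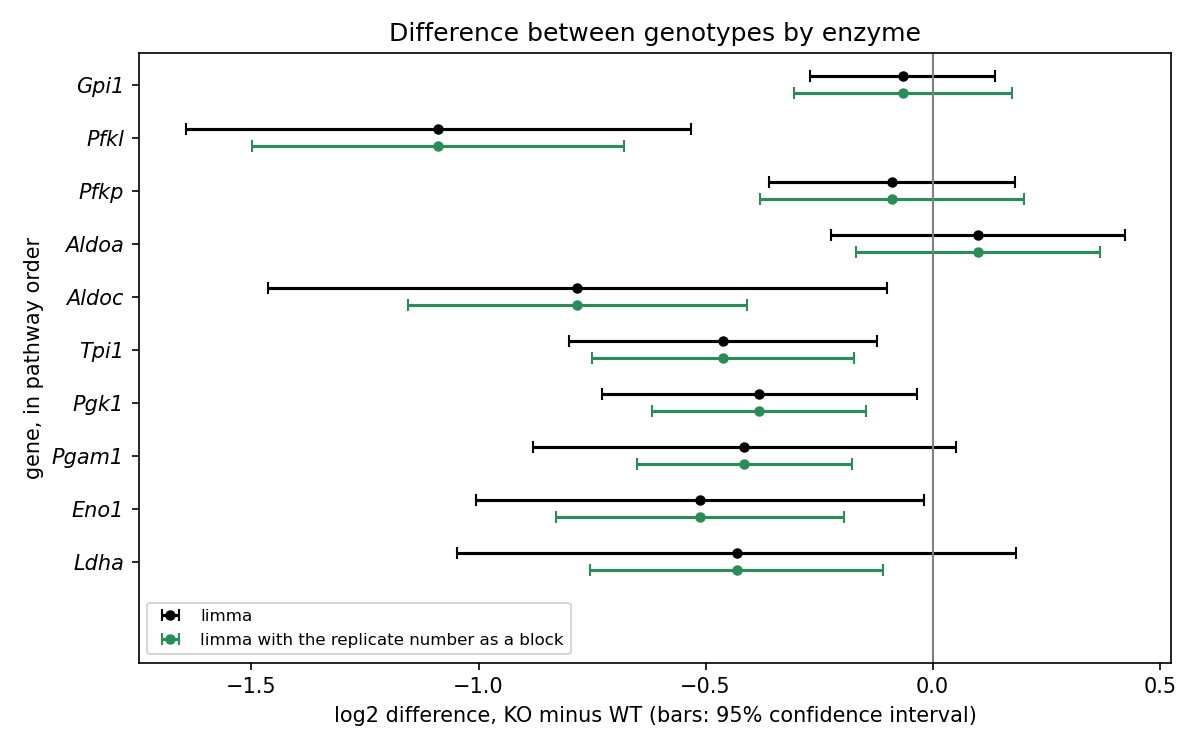
Log2 difference between KO and WT glands (horizontal axis, KO minus WT) for each enzyme in pathway order, as points with 95% confidence intervals, from limma without (black) and with (green) a block for the replicate number. The point of Pfkl lies at -1.09, and those of Gpi1, Pfkp and Aldoa lie near 0. The block narrows the intervals of Aldoa and of the 7 members that were lower in 4 of 4 pairs, and widens those of Gpi1 and Pfkp.

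The first step below the hexokinases did not pass the test. Gpi1, glucose-6-phosphate isomerase, which converts glucose 6-phosphate to fructose 6-phosphate, had log2 signals of 14.98, 14.77, 14.95 and 14.86 in WT glands and of 14.84, 14.83, 14.82 and 14.80 in KO glands. The KO values lay inside the WT range, and the difference was -0.07 (SE 0.09, adjusted p = 0.627, and 0.645 with the block). Its 95% interval ran from -0.27 to 0.14. Scaling each array to its 75th percentile in place of quantile normalization gave -0.24 (adjusted p = 0.0990). The Gpi1 probe is printed in 10 spots on each array, which were averaged, and the spread over the 4 KO arrays was small (SD 0.02).

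Phosphofructokinase, which adds the phosphate to fructose 6-phosphate, was read as a liver type and a platelet type. Pfkl had log2 signals of 11.21, 11.88, 12.02 and 12.22 in WT glands and of 10.52, 10.93, 10.42 and 11.11 in KO glands. The highest KO array thus stayed under the lowest WT array. The mean was 11.83 ± 0.44 (SD, n = 4) in WT and 10.74 ± 0.33 (SD, n = 4) in KO, a log2 difference of -1.09 (SE 0.24, 95% interval -1.65 to -0.53, limma adjusted p = 0.0249, and 0.0175 with the block). Only 3.34% of all genes had a difference as low or lower. In the numbered pairs it was lower by 0.69, 0.95, 1.60 and 1.12 on the log2 scale. Leaving out WT replicate 2 or 3, or KO replicate 1, 2 or 3, moved the adjusted p over 0.05, to values from 0.0504 to 0.0724, while the difference stayed between -1.30 and -0.96 over the 8 fits that each left out 1 array. The gene has 1 probe on the array, so no other probe bears on it.

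Pfkp, the platelet type, did not pass the test. Its brighter probe had log2 signals of 8.71, 8.62, 8.83 and 8.64 in WT glands and of 8.62, 8.38, 8.60 and 8.84 in KO glands, with both the lowest and the highest array in the KO group. The difference was -0.09 (SE 0.12, 95% interval -0.36 to 0.18, adjusted p = 0.618). A dimmer probe of the gene gave 0.15 (SE 0.16), so the probes differ in sign, and their mean gives 0.03. The muscle type, Pfkm, is no member and had a difference of -0.25 (SE 0.13, adjusted p = 0.188).

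Aldolase cleaves fructose 1,6-bisphosphate into the 3-carbon sugars, and its A and C isozymes stood on different sides of 0. Aldoa, the A form, had log2 signals of 16.45, 16.47, 16.64 and 17.00 in WT glands and of 16.61, 16.74, 16.72 and 16.89 in KO glands. All 4 KO values fell inside the WT range, and the difference of 0.10 (SE 0.14) did not pass the test (adjusted p = 0.643). A dimmer probe gave 0.26 (SE 0.11, adjusted p = 0.139 over probes), and scaling to the 75th percentile turned the sign of the brighter probe, to -0.05.

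Aldoc, the C form, best known from brain, had log2 signals of 15.24, 16.36, 15.65 and 16.37 in WT glands and of 14.91, 15.61, 14.70 and 15.27 in KO glands. WT replicate 1 lay within the KO range and the other WT arrays above it. The difference of -0.78 (SE 0.30, or 1.72-fold lower) missed the threshold without the block (adjusted p = 0.0991) and passed it with the block (adjusted p = 0.0263). The pairs were lower by 0.33, 0.74, 0.96 and 1.10 on the log2 scale, and without WT replicate 1 the difference was -1.004 (adjusted p = 0.0372).

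Tpi1, triose-phosphate isomerase, which interconverts the products of aldolase, had log2 signals of 13.73, 14.31, 14.05 and 14.34 in WT glands and of 13.55, 13.74, 13.59 and 13.71 in KO glands. WT replicate 1 again lay just under the highest KO array, and no other WT array did. The difference was -0.46 (SE 0.15, or 1.38-fold lower), with an adjusted p of 0.0633 without and 0.0456 with the block. Without WT replicate 1 it was -0.59 (adjusted p = 0.0185). Gapdh, the next enzyme of the pathway, is described with the genes outside the members.

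The enzymes from 1,3-bisphosphoglycerate to lactate were each lower in KO in 4 of 4 pairs, with genotypes that overlapped. Pgk1, phosphoglycerate kinase, which yields the first ATP of the pathway, had log2 signals of 13.77, 14.07, 13.80 and 14.23 in WT glands and of 13.42, 13.57, 13.46 and 13.89 in KO glands. The pairs were lower by 0.35, 0.50, 0.34 and 0.34, and the lowest KO arrays were replicates 1 and 3. The difference was -0.38 (SE 0.15, or 1.30-fold lower, adjusted p = 0.109, and 0.0446 with the block). Its other probe gave -0.37 (SE 0.16), much the same value.

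Pgam1, phosphoglycerate mutase of brain type, which moves the phosphate from carbon 3 to carbon 2, had log2 signals of 14.36, 14.92, 14.59 and 15.06 in WT glands and of 14.01, 14.42, 14.12 and 14.72 in KO glands. In both genotypes replicate 1 was the lowest and replicate 4 the highest array. The difference was -0.41 (SE 0.20, or 1.33-fold lower, adjusted p = 0.178, and 0.0384 with the block).

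Eno1, alpha-enolase, which makes phosphoenolpyruvate, had log2 signals of 10.70, 10.99, 10.83 and 11.53 in WT glands and of 10.53, 10.24, 10.30 and 10.93 in KO glands. The KO array with replicate number 4 overlapped the lower WT arrays, and the other KO arrays lay under all WT arrays. The difference was -0.51 (SE 0.22, or 1.43-fold lower, adjusted p = 0.126, and 0.0448 with the block). Without WT replicate 4 it was -0.34. Near-identical copies of this and of other members exist in the mouse genome, and whether a probe also read a copy was not tested.

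Ldha, the A subunit of lactate dehydrogenase, which reduces pyruvate to lactate, had log2 signals of 15.52, 16.26, 15.78 and 16.64 in WT glands and of 15.22, 15.99, 15.43 and 15.83 in KO glands. The groups overlapped over most of their range. The difference of -0.43 (SE 0.27, or 1.35-fold lower) passed the test neither without the block (adjusted p = 0.278) nor with it (adjusted p = 0.0670), although the pairs were lower by 0.30, 0.27, 0.35 and 0.82. Without WT replicate 4 the difference was -0.23. A dimmer probe gave -0.63 (SE 0.28, adjusted p = 0.144 over probes).

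Whether isozymes of the same step differed in their response was tested on the difference of their log2 signals on the same array, in 3 pairs of genes. Such a difference between 2 probes has no meaning by its level, and only its shift between genotypes was read. Pfkl minus Pfkp was 2.49, 3.26, 3.20 and 3.58 in WT glands and 1.89, 2.55, 1.82 and 2.26 in KO glands. Only WT replicate 1 and KO replicate 2 overlapped. The shift was -0.999, with p = 0.0571 in an exact two-sided permutation test over the 70 relabelings of the arrays and 0.0571 after adjustment over the 3 pairs.

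Aldoa minus Aldoc was 1.21, 0.11, 0.99 and 0.63 in WT glands and 1.70, 1.13, 2.03 and 1.61 in KO glands, with WT replicate 1 above KO replicate 2. The shift of 0.88 had the same exact p of 0.0571 (adjusted p = 0.0571). For lactate dehydrogenase, Ldhb, the B subunit, which is no member, had a difference of 0.44 (SE 0.27, adjusted p = 0.264 in limma), which was 0.23 without WT replicate 1 and 0.68 without WT replicate 4. Ldha minus Ldhb was 3.24, 3.29, 3.005 and 3.03 in WT glands and 2.10, 2.31, 2.15 and 2.52 in KO glands, and these ranges did not overlap. This shift of -0.87 gave the smallest p that the exact permutation test allows, 0.0286, which became 0.0571 after adjustment. No isozyme pair passed the adjusted threshold, and an exact sign-flip test within the 4 pairs cannot go below p = 0.125. With normexp background correction, or without WT replicate 1, the adjusted p of the same exact permutation test was 0.0429 for Pfkl against Pfkp and for Ldha against Ldhb.

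**Figure D3:**
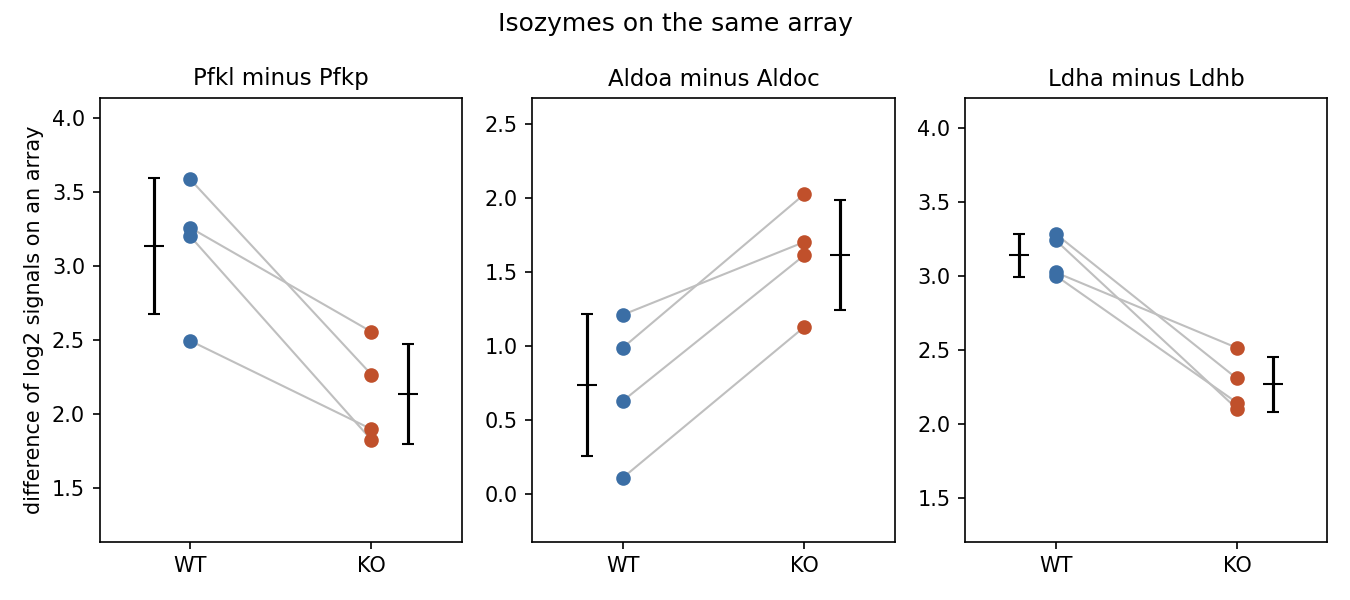
Difference of log2 signals between isozymes on the same array (vertical axis) in WT and KO glands; points are arrays, grey lines join arrays with the same replicate number, and bars give the mean and SD of 4 arrays. Ldha minus Ldhb separates the genotypes, with WT values from 3.005 to 3.29 and KO values from 2.10 to 2.52, and the other panels each show 1 overlap.

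Around the members, 44 other genes of glucose use were listed, of which 34 were tested. In limma 2 were higher and 1 was lower in KO glands, beside 7.53% of all genes higher and 8.96% lower, and their median difference was -0.03. Pfkfb3, which makes the fructose 2,6-bisphosphate that activates phosphofructokinase, had log2 signals of 11.62, 11.43, 11.91 and 11.64 in WT glands and of 13.43, 13.72, 13.35 and 12.02 in KO glands. All KO arrays lay above all WT arrays, KO replicate 4 by the least. It rose by 1.48 (SE 0.34, adjusted p = 0.0258), the opposite direction to Pfkl. Pdk3, a kinase that inactivates pyruvate dehydrogenase, rose by 0.84 (SE 0.22, adjusted p = 0.0357), from 6.70 to 7.65 in WT glands and from 7.996 to 8.39 in KO glands. Gapdh, glyceraldehyde-3-phosphate dehydrogenase, had log2 signals of 15.52, 15.50, 15.56 and 15.68 in WT glands and of 15.18, 15.20, 15.18 and 15.31 in KO glands. Its genotypes did not overlap, and it fell by 0.35 (SE 0.09, adjusted p = 0.0364, and 0.0508 with the block). Leaving out WT replicate 2 or 3 or KO replicate 1, 2 or 3 lifted the adjusted p of all 3 over 0.05, WT replicate 4 did so for Gapdh alone (0.0669) and KO replicate 4 for Pdk3 alone (0.0602), up to 0.0997 for Gapdh, 0.0745 for Pfkfb3 and 0.0890 for Pdk3. With the block, 5 of the 34 were higher and 4 lower, beside 8.75% of all genes higher and 10.8% lower.

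The hexokinases, which feed the members, and the other isozymes were read the same way. Hk2, the inducible hexokinase, had a difference of -0.79 (SE 0.24, adjusted p = 0.0542, and 0.0172 with the block), and Hk1 of -0.35 (SE 0.16, adjusted p = 0.158). Among the other isozymes, 3 with positive differences did not pass the test without the block, with Eno3 at 0.61 (SE 0.19, adjusted p = 0.0620), Eno2 at 0.72 (SE 0.25, adjusted p = 0.0805, and 0.0355 with the block) and Pgam2 at 0.90 (SE 0.45, adjusted p = 0.186). With normexp background correction Eno2 was at 0.34 (adjusted p = 0.166) and Pgam2 at 0.41 (adjusted p = 0.243), and without KO replicate 3 Pgam2 was at 0.50. Eno3, Eno2 and Pgam2 were all highest on KO replicates 1 and 3. The signals there were 9.67 and 9.93 for Eno3, 6.62 and 6.86 for Eno2, and 6.21 and 7.10 for Pgam2. The muscle myosin gene Myh1 was highest on the same arrays, at 7.45 and 9.51, beside 4.34 and 5.39 on the other KO arrays and 3.06 to 4.60 on the WT arrays, where it was near the background. Myl1, at 10.19 and 10.73, and Ryr1, at 5.14 and 5.98, were also highest on KO replicates 1 and 3. Acta1 and Tnni2 were highest on KO replicate 3, at 11.74 and 11.91. For Acta1, KO replicate 1 (10.94) lay under KO replicate 4 (11.005). For Tnni2, KO replicate 1 (10.60) lay under WT replicate 1 (10.71). Between genotypes 5 of the 6 tested muscle markers had positive differences, and 0 of them were called higher. These were Myh1 at 2.51 (SE 1.01, adjusted p = 0.112), Myl1 at 1.08 (SE 0.45, adjusted p = 0.122), Tnni2 at 0.70 (SE 0.82), Acta1 at 0.48 (SE 0.34) and Ryr1 at 0.11 (SE 0.44). Tnnt3 fell by 1.28 (SE 0.33, adjusted p = 0.0367, and 0.0536 with the block), and its highest KO arrays were replicates 3 (8.60) and 1 (7.55). The part of muscle RNA in these differences was not tested. Pyruvate kinase, the step between Eno1 and Ldha, did not pass the test as Pkm, at -0.34 (SE 0.19, adjusted p = 0.244, and 0.165 with the block). Its other gene, Pklr, had a positive difference of 0.81 (SE 0.29, adjusted p = 0.0868, and 0.0216 with the block). The Pklr signals were near the background, with means of 3.82 in WT and 4.63 in KO glands, and with normexp background correction the difference was 0.20.

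**Figure D4:**
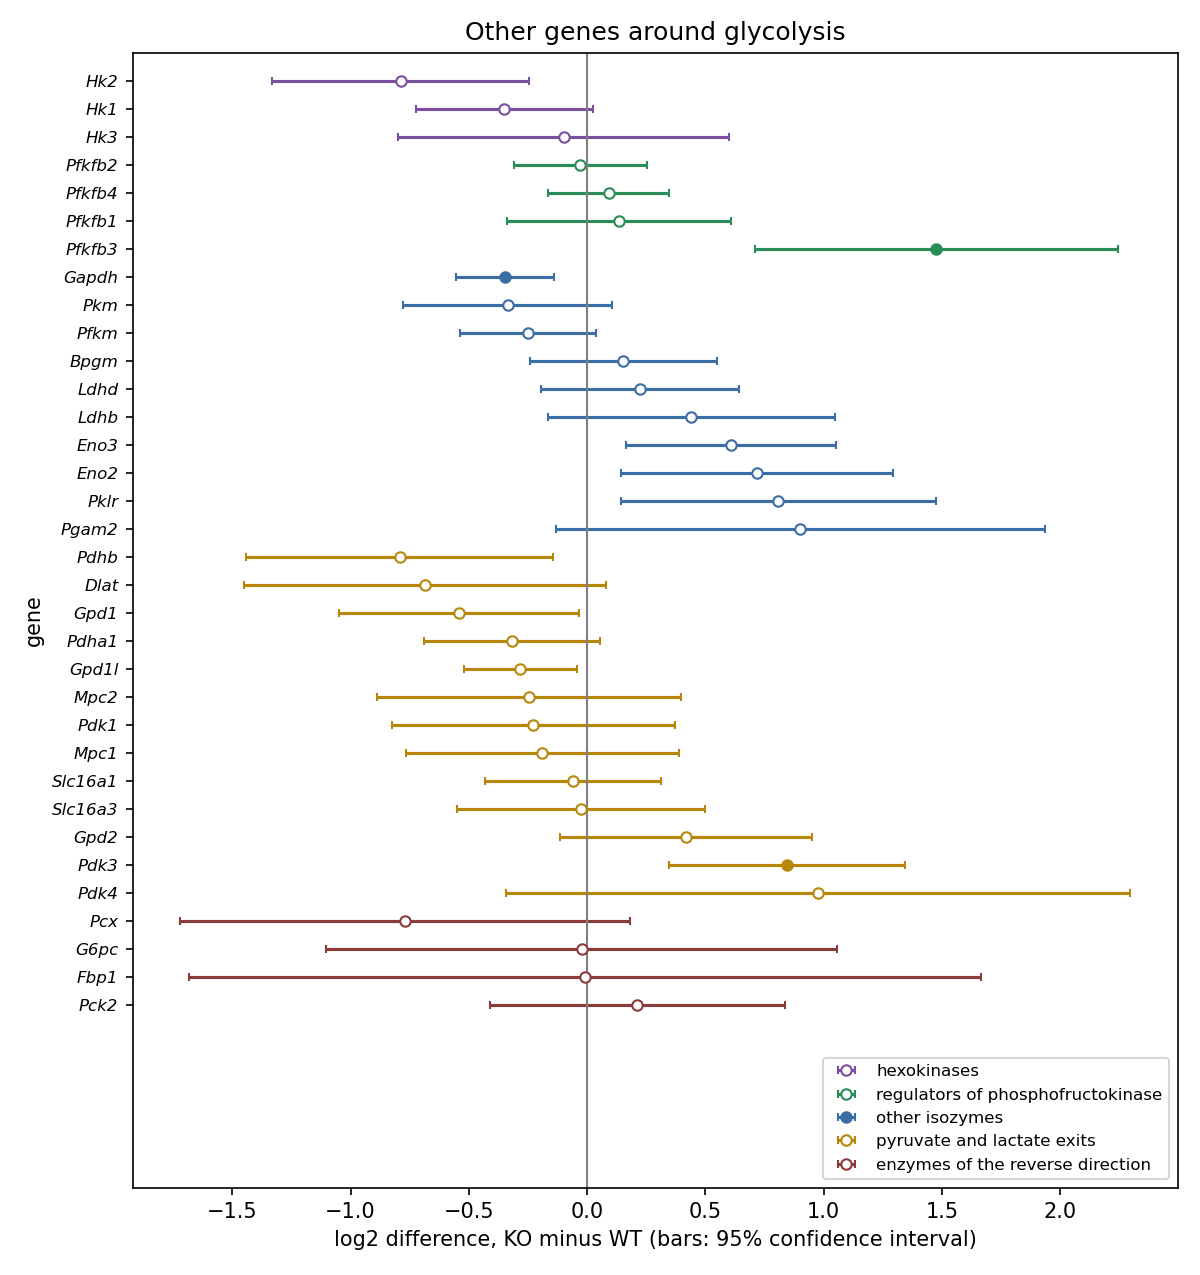
Log2 difference between KO and WT glands (horizontal axis, KO minus WT) of the 34 tested genes around glycolysis, as points with 95% confidence intervals from limma, coloured by role and filled where the adjusted p was under 0.05. The filled points are Pfkfb3 at 1.48 and Pdk3 at 0.84, to the right of 0, and Gapdh at -0.35, to the left.

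Many genes of glycolysis are known targets of the hypoxia-inducible factors, so 22 genes of the hypoxia response that are no glycolytic enzymes were set beside the members. Of these, 2 were higher and 2 lower in KO glands, beside 7.53% of all genes higher and 8.96% lower, and the median difference was -0.02. Slc2a1, which encodes the glucose transporter GLUT1, fell by 0.89 (SE 0.15, adjusted p = 0.0140), from log2 signals of 13.22, 13.63, 13.50 and 13.61 in WT glands to 12.32, 12.83, 12.45 and 12.80 in KO glands, with no overlap. Hmox1, heme oxygenase, fell by 0.89 as well (SE 0.23, adjusted p = 0.0367). Mxi1, an antagonist of Myc, rose by 1.09 (SE 0.20, adjusted p = 0.0162), and Kdm3a, a histone demethylase, rose by 0.70 (SE 0.18, adjusted p = 0.0354, and 0.0553 with the block). Slc2a1 and Mxi1 stayed past the threshold in each of the 8 fits that left out 1 array. Hmox1 and Kdm3a each lost it in 6 of them (adjusted p up to 0.0982 for Hmox1 and 0.0893 for Kdm3a), which were the fits without WT replicate 2 or 4 or KO replicate 1, 2 or 3 for both genes, without WT replicate 1 for Hmox1 and without WT replicate 3 for Kdm3a. With the block, 1 of the 22 was higher (Mxi1) and 2 were lower, beside 8.75% of all genes higher and 10.8% lower. Hif1a itself had a difference of -0.10 (SE 0.17, adjusted p = 0.693), and Vegfa, its best known target, of -0.28 (SE 0.13, adjusted p = 0.164).

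Many of the members also varied together among arrays of the same genotype, with a correlation above 0.5 in 27 of 45 pairs. After the mean of the own genotype was subtracted, the 45 pairs of members had a median correlation of 0.66 over the 8 arrays, with a range from -0.82 to 0.97. Aldoc, Tpi1, Pgk1, Pgam1, Eno1 and Ldha, a set picked after these values were seen, had correlations from 0.50 to 0.97 in their 15 pairs. Gpi1 stood apart, with a median correlation of -0.63 with the other members, as did Pfkp with 0.09. The deviations of Gpi1 were small, from -0.12 to 0.09 in WT and from -0.02 to 0.02 in KO glands. Its correlations thus rest mainly on small deviations of the WT arrays. In the mean of the 10 log2 signals, WT replicates 1 to 4 had 13.47, 13.86, 13.71 and 14.09 and KO replicates 1 to 4 had 13.22, 13.44, 13.22 and 13.60. Replicate 1 was lowest and replicate 4 highest among the WT arrays, replicate 4 was highest among the KO arrays, and WT replicate 1 was close to KO replicate 2. These correlations describe 8 arrays that share a normalization and, in pairs, a replicate number, and they have no test. The correlations of other sets of genes were not computed, so no trait particular to the members is read from these.

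**Figure D5:**
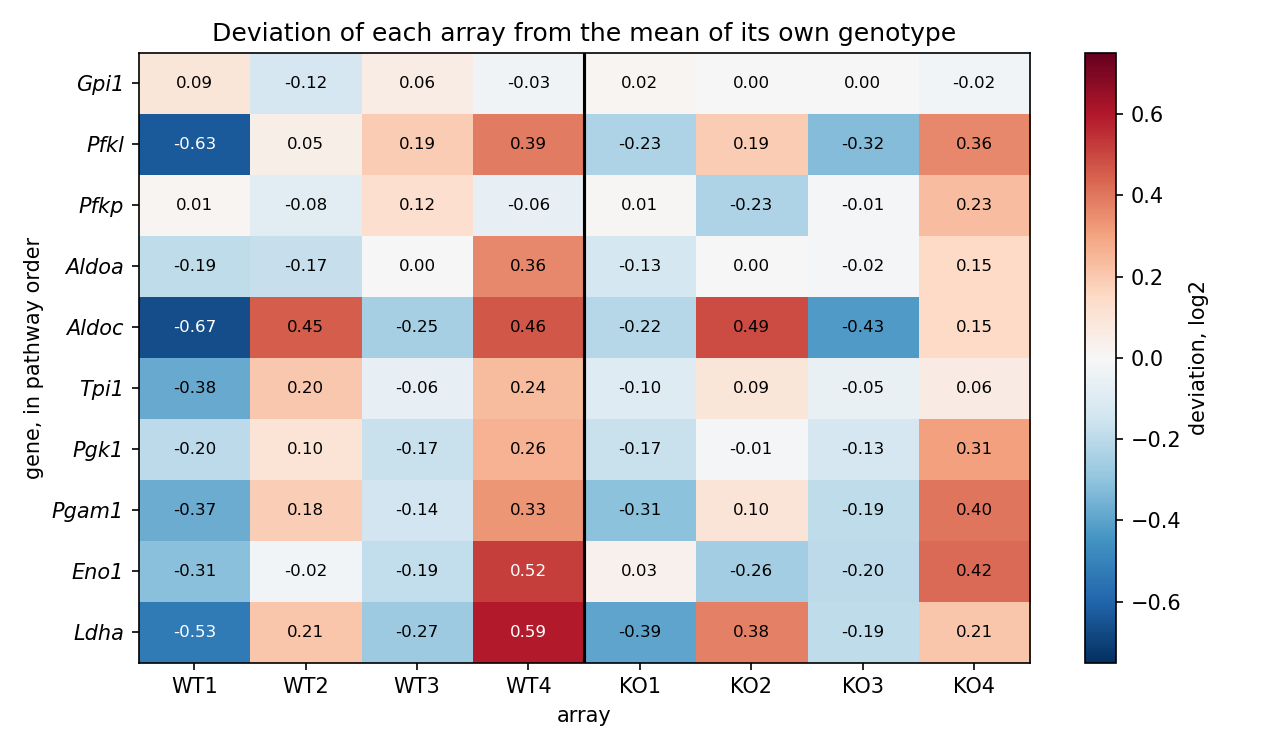
Deviation of each array (columns) from the mean log2 signal of its own genotype for the 10 enzymes (rows), in colour and in figures. The WT replicate 1 column is negative for 8 of the 10 enzymes and the replicate 4 columns are mostly positive, while the Gpi1 and Pfkp rows stay pale.

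The genes whose deviations were most like the mean of the members were Nqo2 (r = 0.995), Ndufs1 (0.995), Sdhaf4 (0.994), Csnk2a1 (0.994) and Uqcrq (0.991), over the same 8 arrays and out of all genes tested. Ndufs1 and Uqcrq encode subunits of the respiratory chain complexes I and III, and Sdhaf4 an assembly factor of complex II. None of these genes was called between genotypes, and their differences ranged from -0.32 for Ndufs1 to -0.03 for Uqcrq.

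Promoters are shown for the members with the largest differences, Pfkl and Aldoc, and for Pgk1, Pgam1 and Ldha, which moved together and hold the core letters of a hypoxia response element. The 250 bases before the transcription start are given from RefSeq on GRCm38.p6, 5′ to 3′ along the gene. Capitals mark ACGTG, the core of a hypoxia response element, and GGGCGG, the GC box bound by Sp1, on either strand. CACGTG, the E-box bound by Myc and by the SREBP and ChREBP families among others, holds ACGTG on both strands and counts there as 1 site.
Pfkl, chr10:78009808-78010057, minus strand: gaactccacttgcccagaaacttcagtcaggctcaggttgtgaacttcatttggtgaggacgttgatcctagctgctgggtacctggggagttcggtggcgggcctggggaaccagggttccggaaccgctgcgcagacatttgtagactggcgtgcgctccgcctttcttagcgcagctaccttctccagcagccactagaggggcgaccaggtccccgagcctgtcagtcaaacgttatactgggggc
Aldoc, chr11:78322823-78323072, plus strand: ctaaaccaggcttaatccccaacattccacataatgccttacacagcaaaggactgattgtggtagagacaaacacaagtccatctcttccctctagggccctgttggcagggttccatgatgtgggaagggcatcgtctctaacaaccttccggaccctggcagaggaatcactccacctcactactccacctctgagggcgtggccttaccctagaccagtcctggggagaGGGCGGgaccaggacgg
Pgk1, chrX:106186850-106187099, plus strand: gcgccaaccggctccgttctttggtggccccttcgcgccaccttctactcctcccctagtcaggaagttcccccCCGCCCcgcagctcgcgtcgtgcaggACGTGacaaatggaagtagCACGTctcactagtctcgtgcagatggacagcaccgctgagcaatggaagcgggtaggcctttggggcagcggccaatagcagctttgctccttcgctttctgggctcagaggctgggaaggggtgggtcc
Pgam1, chr19:41911621-41911870, plus strand: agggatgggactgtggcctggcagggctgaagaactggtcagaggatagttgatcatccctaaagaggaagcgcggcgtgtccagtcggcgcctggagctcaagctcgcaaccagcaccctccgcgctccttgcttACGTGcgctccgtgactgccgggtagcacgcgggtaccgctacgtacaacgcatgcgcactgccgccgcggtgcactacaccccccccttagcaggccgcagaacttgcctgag
Ldha, chr7:46845554-46845803, plus strand: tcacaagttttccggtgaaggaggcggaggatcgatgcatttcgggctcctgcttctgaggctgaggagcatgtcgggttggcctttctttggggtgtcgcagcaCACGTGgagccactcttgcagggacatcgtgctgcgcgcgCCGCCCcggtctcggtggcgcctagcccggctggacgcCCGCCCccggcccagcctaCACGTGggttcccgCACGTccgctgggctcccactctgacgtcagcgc

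The Pfkl window held neither motif, and the Aldoc window held 1 GC box. Pgk1 had 2 core sites, Pgam1 had 1 and Ldha had 3, of which 2 were E-boxes. RefSeq lists 16 such windows for the 10 members, several for Aldoa, Aldoc, Eno1 and Ldha, and the window printed is the one with the most core sites, or else the first listed. ACGTG occurred in 5 of these 16 windows and in 4 of 10 members (Aldoa, Pgk1, Pgam1 and Ldha), beside 16.6% of the 32851 windows of all genes. CACGTG occurred in 1 of the 16, beside 6.02%, and GGGCGG in 10 of the 16, beside 32.7%. The matches describe letters in these windows and were not set against binding. The members with the core had differences of 0.10 (Aldoa), -0.38 (Pgk1), -0.41 (Pgam1) and -0.43 (Ldha), and those without it ran from -1.09 (Pfkl) to -0.07 (Gpi1).

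Some genes that mark cell types moved between genotypes as well, in a comparison that called 7.53% of all genes higher and 8.96% lower. With the block these shares were 8.75% and 10.8%. Luminal and alveolar epithelium had 3 of 9 markers called higher in KO glands (Krt18, Epcam and Cdh1) and 0 lower, and its summed log2 level was 19.68 to 19.76 in WT and 19.77 to 19.84 in KO glands. Wap and Csn2 are the brightest markers in this sum, so no difference between genotypes is read from it. Differences were positive for 7 of the 9 markers and negative for 2, Elf5 at -0.35 (SE 0.14, adjusted p = 0.107) and Lalba. Adipocytes had 2 of 8 called higher (Plin1 and Cfd), with summed levels of 18.17 to 18.65 in WT and 18.66 to 19.15 in KO glands. Differences were positive for 7 of the 8 and negative for Lep, at -0.73 (SE 0.55, adjusted p = 0.370). Cfd (16.87 to 18.00) and Fabp4 (16.80 to 17.56) are the brightest markers in the adipocyte sum and lie near Csn2, so no difference between genotypes is read from that sum either. Neutrophil markers had 3 of 5 tested called higher (Ngp, Camp and Ltf), with summed levels of 16.04 to 16.62 and 17.37 to 18.04, although Ltf, which epithelium also makes, is the brightest of them, and Mmp8 did not pass the filter on dim probes. On each WT array, Camp and Ngp lay under the lowest signal well above background. They thus passed that filter only through the KO arrays, where they are high. S100a9, at 2.19 (SE 0.67, adjusted p = 0.0566), and S100a8, at 0.49 (SE 0.36, adjusted p = 0.357), were not called. T cells had 2 of 6 called lower (Cd3e and Cd4), with summed levels of 8.76 to 9.99 and 8.75 to 9.16. The Cd4 signals were near the background, with means of 4.77 in WT and 4.34 in KO glands. Fibroblasts had 1 of 6 called higher (Dcn), with summed levels of 17.41 to 17.74 and 17.71 to 18.28. Skeletal muscle had 1 of 6 tested called lower (Tnnt3), with summed levels of 11.36 to 12.02 and 11.02 to 13.31, while Ckm and Myh4 did not pass the filter on dim probes. The differences of the other 5 tested were positive, and the median over the 6 was 0.59. Basal epithelium, macrophages, B cells and endothelium had 0 called (limma), with 1 of 7, 0 of 5, 1 of 5 and 1 of 5 tested at an unadjusted p under 0.05, beside 5136 of all 14137 genes. Erythroid cells had 1 of 3 tested called higher (Hba-a1), with summed levels of 13.14 to 14.65 and 14.57 to 15.55. With the block the counts became 2 higher and 1 lower (Lalba, adjusted p = 0.0444) for luminal and alveolar epithelium, 1 lower for T cells, 4 higher for neutrophils, 2 higher for fibroblasts, and 0 for skeletal muscle and erythroid cells. The part of these cell types in the differences of the enzymes was not tested.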

How the data were processed

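Gene expression in No. 4 mammary glands of 4 WT and 4 KO dams was read on 1 array per dam. Groups and replicate numbers followed the sample labels. For each array, the authors had run Agilent Feature Extraction 10.7, and the intensities they deposited were already corrected for background within the array. The deposited series table holds log2 values that the authors quantile-normalized in GeneSpring. Its columns correlated with the log2 scanner values at r of 0.9985 or more and had a median of 6.32, and it served as an alternative.

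Here the log2 processed intensities were quantile-normalized across arrays in R 4.3.3 with limma 3.58.1, without the 64 to 100 spots per array marked as outliers. Replicate spots of a probe were averaged. Through their accessions, 26728 of 27094 NM probes matched a symbol in the RefSeq table of GRCm38.p6. The array design names build mm9, so no probe coordinates are given, and the promoter windows carry the GRCm38.p6 coordinates of the RefSeq table. Probes were kept if well above background on each of the 4 arrays of either genotype, the brightest probe stood for its gene, and limma ran on 14137 genes with Benjamini-Hochberg adjustment and a threshold of 0.05. SE is the moderated standard error of the difference. A summed level is log2 of the sum of the linear signals of a list's tested markers. The bound for Zbtb7b sets the WT mean against the lowest signal well above background on each KO array. The number of arrays limits the precision. The limma p-values set the genotype difference against the moderated spread between dams of the same genotype, after the replicate number in the block fit. They hold no measure of the spread between slides.

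Arrays that share a number deviated together from their genotype means (r = 0.22, 0.16, 0.30 and 0.28 for the 4 numbers, mean of -0.08 across numbers), and the numbers were taken to pair the samples. Deviations from a genotype mean sum to 0, so the mean across numbers follows largely from the other values and is no separate evidence. The pairing and the block fit thus rest on these same data, and the labels do not say what a shared number stands for. Members and gene lists were chosen with earlier results of these data known. Named are all members, the genes of the glucose and hypoxia lists that were called or share a member's step, the markers of each cell type (those of nerve and Schwann cells are not reported here), and the 5 genes most like the mean of the members. Hk1, Hk2, Pkm, Pklr, Hif1a and Vegfa fall outside this rule and were chosen after their values were seen. Alternatives were scaling to the 75th percentile, normexp background correction (offset 50, on median signals in place of the planned mean signals, which were not used here), no filter, the deposited table, the mean of a gene's probes, each probe on its own, marked spots kept, the replicate block, each array left out and the two-sided t-test that the methods name. Promoter motifs were counted in Python 3.11.15.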

Additional observations from a re-analysis of the deposited data

Results flagged for a closer look

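Among 48 groups of 4 arrays (24 genes in both genotypes), 1 held an array far from the others. Pgam2, the muscle form of phosphoglycerate mutase, had a log2 signal of 5.52 on WT replicate 4, beside 4.78 to 4.84 on the other WT arrays. Chance alone gives such a gap in about 1 in 20 groups. The members held no such array.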

How the results depend on the processing

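Apart from Pfkp and Aldoa, which lie near 0, all members kept the sign of their difference under every alternative run. Pfkp became 0.0328 with the mean of its probes and Aldoa -0.0508 with 75th percentile scaling. The replicate block left the differences as they were (Aldoc -0.78, Tpi1 -0.46, Pgk1 -0.38, Pgam1 -0.41, Eno1 -0.51) and brought these 5 genes past the threshold, so that 6 members were called lower, along with 4 other glucose genes lower and 5 higher, and 1 hypoxia gene higher. Tpi1 also passed with 75th percentile scaling, at -0.61, where 2 members were called lower, all 10 had a lower mean, 7 were at an unadjusted p under 0.05 and the members' median was -0.56. Over all genes that scaling called 1436 lower and 1002 higher, beside 1266 and 1065 in the main fit. It put 5229 at an unadjusted p under 0.05, beside 5136, and moved the median over all genes from -0.02 to -0.05. The methods' t-test gave 3 members and 4765 genes at an unadjusted p under 0.05. After adjustment it called 0 members, with Pfkl at -1.09 and an adjusted p of 0.0579, and 796 genes lower and 593 higher, 0 other glucose genes higher, and 1 hypoxia gene lower and 1 higher. Other glucose genes called lower were 2 with normexp and 0 with the mean of a gene's probes. Without the filter on dim probes, 1 other glucose gene was called higher, and 1 hypoxia gene lower and 1 higher. With normexp the isozyme shifts of Pfkl against Pfkp (-1.02) and Ldha against Ldhb (-0.91) passed their adjusted threshold.

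Leaving out 1 array at a time gave differences from -1.30 to -0.96 for Pfkl, from -1.004 to -0.63 for Aldoc and from -0.59 to -0.38 for Tpi1, from -0.65 to -0.34 for Eno1 and from -0.61 to -0.23 for Ldha, both smallest without WT replicate 4, and isozyme shifts from -1.21 to -0.85 for Pfkl against Pfkp and from -0.95 to -0.82 for Ldha against Ldhb. It called 0 (without WT replicate 2 or 3 or KO replicate 1, 2 or 3) to 3 (without WT replicate 1) members lower, 249 (without KO replicate 3) to 1682 (without WT replicate 1) genes lower and 266 to 1388 higher, 0 to 3 other glucose genes lower and 0 to 3 higher, and 1 to 2 hypoxia genes lower and 1 to 2 higher. Fewer arrays were fitted there, and for the other settings the cause was not tested. All 14 probes of the members were well above background on 8 of 8 arrays.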
